A study of Homo sapiens with 8 samples.

Results

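Introns of at least 150 and under 1000 nt that rMATS listed as retained-intron events were examined in U2OS cells treated with EGFP or CHERP siRNA. An intron is the stretch between the end of the upstream exon and the start of the downstream exon of an event, and it was kept by the length of that stretch alone, without use of its level. Of 3812 introns listed in the whole-cell or the cytoplasmic table, 2063 met the rule, against 1214 shorter ones and 535 longer ones. Of the 2063 introns, 2012 were in the whole-cell table and 929 in the cytoplasmic table, with 878 in both, 1134 in whole cells alone and 51 in the cytoplasm alone. They lay in 1421 genes, 399 of which held 2 or more, and their median length was 330 nt. Of them, 673 overlapped another retained intron and 661 shared a splice site with one. Such introns can share reads, so counts of introns below are not counts of independent events.

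U2OS is a human osteosarcoma line. The 4 groups were whole-cell RNA with EGFP siRNA, whole-cell RNA with CHERP siRNA, cytoplasmic RNA with EGFP siRNA and cytoplasmic RNA with CHERP siRNA, with 2 libraries in each and 8 in all. Either siRNA was given at 20 nM for 48 h, the EGFP siRNA being the control, and cytoplasmic RNA came from the supernatant of cells opened with a mild detergent. The knockdown rests on 1 siRNA, CHERP #2, so effects of its sequence on other transcripts cannot be told apart from loss of CHERP. The labels call the samples biological duplicates. The p-values of splicing rest on the spread between these libraries shared over events of like read depth, not on an intron's own spread. The 2 fractions also differ in the effective lengths of their events, 144 nt against 73 nt for the spliced form, so fraction cannot be told apart from read length and run.

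Introns are removed from pre-mRNA by the spliceosome, which reads the GT at the 5′ splice site and, near the 3′ end, a branch point, a pyrimidine tract and the terminal AG. The U2 snRNP binds the branch point early in that process, and CHERP is a nuclear protein that associates with it. A transcript that keeps an intron can be held in the nucleus, or, if exported, be degraded when the intron brings in a premature stop codon, and short introns rich in G and C are known to be kept more often than long ones. Small nucleolar RNAs are cut out of introns of their host genes, and the spliced host transcripts are often short-lived.

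The inclusion level of an intron is the share of transcripts that keep it, from 0 to 1, computed from the reads on the intron-containing and the spliced form, each divided by its effective length. All splicing events together held 29409956 to 35664568 reads in the whole-cell libraries and 5370756 to 6580099 reads in the cytoplasmic ones. Over the introns of this length the median number of reads per library was 61.4 in whole cells and 29.8 in the cytoplasm, and 13.3% and 28.2% of them had under 10. In whole cells CHERP itself had 103 and 77 event reads in the EGFP libraries, falling to 3 and 10 after its knockdown, a log2 fold change of -3.46 (limma, adjusted p = 0.000883), and in the cytoplasm 31 and 21 reads fell to 3 and 4 (log2 fold change -2.69, adjusted p = 3.41e-05). Of the mesenchymal markers, VIM, FN1, CD44 and THY1 had reads in every library, while SPARC, COL1A1 and COL1A2 had no event. PTPRC, CD3E, EPCAM, ALB and PECAM1 had no event either, CDH1 had 1 to 22 reads per library, and KRT8, a keratin, had 12305 to 19315 reads in whole cells.

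The splice sites of 6 introns are printed to show what the sites of the introns named most often below look like. All were read from GRCh37, the build also called hg19, on the transcribed strand and 5′ to 3′. Each 5′ site holds the last 3 exonic and the first 10 intronic bases, each 3′ site the last 27 intronic and the first 3 exonic bases, and capitals mark the first 2 and last 2 bases of the intron. The introns are in TPTEP1 (chr22:17095069-17095588, plus strand), PFKM (chr12:48528822-48529073, plus strand), SUPT7L (chr2:27884469-27885045, minus strand), MBTD1 (chr17:49269642-49270142, minus strand), GAS5 (chr1:173833843-173834366, minus strand) and C17orf76-AS1 (chr17:16343018-16343498, plus strand).
TPTEP1 5′ site: aggGTaagtccat
TPTEP1 3′ site: ttgttttatttgtcttattaatatcAGaag
PFKM 5′ site: aatGTtcgtatga
PFKM 3′ site: tctctgtccctctgttggtcccttcAGctg
SUPT7L 5′ site: aagGTgagttgaa
SUPT7L 3′ site: cagttacatttctcttaatttatttAGgga
MBTD1 5′ site: agtGTaagttggt
MBTD1 3′ site: taccaattttccctttttatttttcAGcat
GAS5 5′ site: aagGTatagcagt
GAS5 3′ site: ttactgtgtattgtcccttaatttcAGgac
C17orf76-AS1 5′ site: gagGTgagaggct
C17orf76-AS1 3′ site: ggtgacctaattgctatattcacctAGgtt

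A site's score was the sum of log-odds of its bases against equal base frequencies, with base frequencies taken from 95806 introns beside skipped-exon events. The 5′ site of the PFKM intron scored 1.96, below the median of 7.19 over the introns of this length in whole cells, and the SUPT7L 5′ site scored 11.8. The MBTD1 3′ site, with an almost unbroken pyrimidine tract, scored 16.2 against a median of 6.98. TPTEP1 scored 10.4 at its 5′ site and 9.0 at its 3′ site.

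Nearly all of the introns had the usual ends. Of the 2063, 2021 ran from GT to AG, 33 from GC to AG, 2 from AT to AC and 7 had other ends. In GENCODE 44 lifted to GRCh37, 1627 lay within coding sequence, 121 in a 5′ UTR, 93 in a 3′ UTR and 126 in noncoding transcripts, and 96 matched no annotated intron. Of the 1627 coding ones, 1491 would bring in an in-frame stop codon, 76 would shift the frame and 60 would keep it open. An annotated small RNA gene lay inside 29 of them and an annotated exon inside 308, and reads on such an exon count as reads of the intron. The letters CTAAC or CTGAC, common at human branch points, were searched on the transcribed strand in the 50 bases before the last 3 of each intron, and 14.3% of the introns in the whole-cell table had either, against 14.8% of all retained introns. In the whole-cell table their median GC content was 55.2%, against 61.0% in retained introns under 150 nt and 45.1% in those of 1000 nt or more.

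In control cells the level of these introns depended on where they sat. With EGFP siRNA the median level in whole cells was 0.148 (means of 2 libraries), against 0.131 over all retained introns, and 855 introns were under 0.1, 517 between 0.1 and 0.5, 352 between 0.5 and 0.9 and 288 at 0.9 or more. Introns within coding sequence had a median of 0.0907 (n = 1593), those in 5′ UTRs 0.658 (n = 118), in 3′ UTRs 0.756 (n = 89) and in noncoding transcripts 0.769 (n = 123). Those that matched no annotated intron had the highest median of these parts, 0.909 (n = 89). First introns had a median of 0.637 (n = 99), last introns 0.469 (n = 225) and internal introns 0.116 (n = 1596). The 292 introns with an annotated exon inside had a median of 0.644 and the other 1720 one of 0.124. The 33 introns that start with GC had a median of 0.771. These medians are descriptions without a test.

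Whether CHERP siRNA changed the introns was asked first in whole cells. After CHERP siRNA, 27 of 2012 introns rose and 42 fell (quasi-binomial test of the reads on both forms, with the dispersion squeezed by limma and Benjamini-Hochberg adjusted p under 0.05), which is 3.43% against 3.26% of all 3717 retained introns tested, 1.35% rising and 1.91% falling. The share of these introns that changed was thus near the background. It was 1.19% in introns under 150 nt and 7.24% in those of 1000 nt or more, and within the class it was 2.99% at 150 to 199 nt, 2.58% at 200 to 299 nt, 3.21% at 300 to 499 nt and 4.70% from 500 nt up. Median reads per library were 50.1 under 150 nt and 120 at 1000 nt or more. In the 4 bins of the class they were 56.0, 51.25, 60.5 and 79.75. The part of read depth in these shares was not tested. The 69 changed introns lay in 64 genes, and in 28 the level moved by 0.1 or more, 10 up and 18 down. Over all retained introns 51 of the 121 called moved that far, 21 up and 30 down. The median level hardly moved, from 0.148 to 0.143, with 997 introns above and 1011 below 0 in their difference (median -6.55e-05, against -0.000894 over all retained introns). An unadjusted p under 0.05 was reached by 251 introns, against 412 of all 3717 retained introns. The groups did not overlap in 736 of the 2012 introns, against 1316 of all 3717 retained introns. With 2 libraries per group, lack of overlap is thus common also among introns that were not called.

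**Figure D1:**
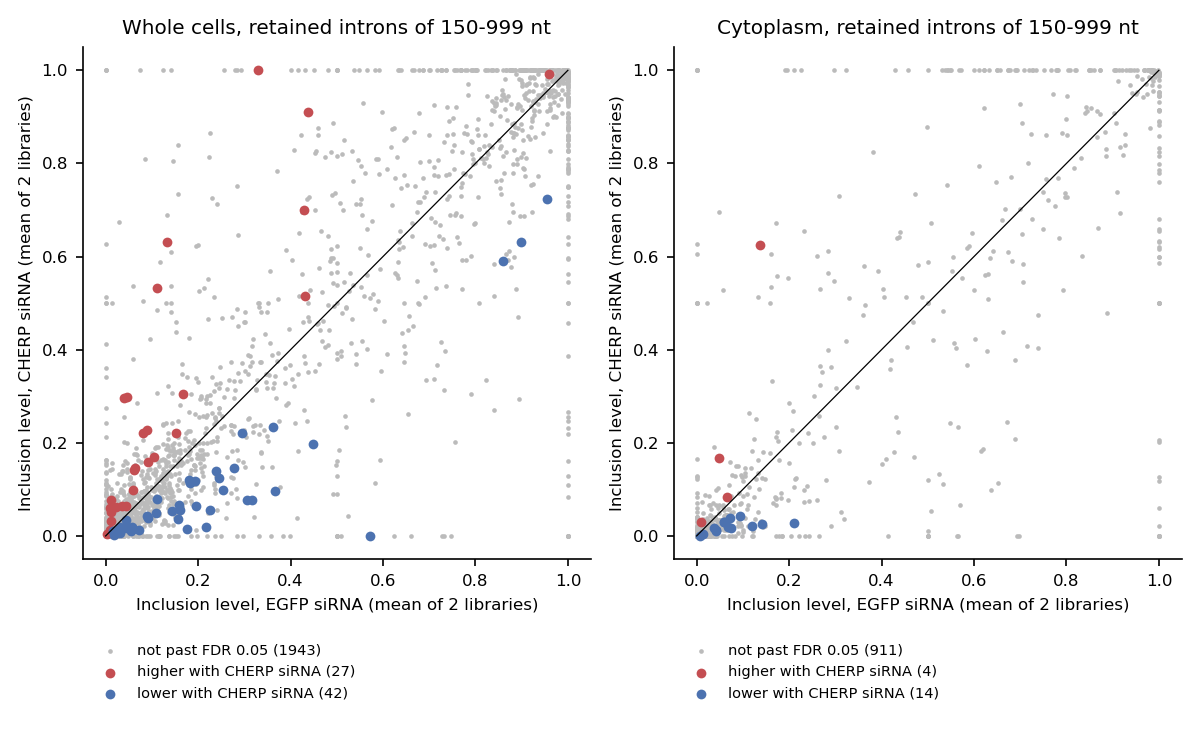
Mean inclusion level of each intron of at least 150 and under 1000 nt with EGFP siRNA (x axis) and with CHERP siRNA (y axis), 2 libraries each, in whole cells (left) and the cytoplasm (right); the line marks equal levels. In whole cells 27 red points lie above the line and 42 blue points below it, in the cytoplasm 4 and 14, and the grey points did not pass.

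In most called introns the intron reads and the spliced reads differed in opposite directions. The introns were selected on the ratio of these reads, so such opposition follows in part from the selection. Of the 27 introns that rose, 19 had more intron reads and fewer spliced reads relative to all event reads of the library, 3 had more of both and 5 fewer of both. Of the 42 that fell, 32 had fewer intron reads and more spliced reads, 4 more of both and 6 fewer of both. The count rests on a dispersion shared by events of like depth, and limma on the log2 odds of each intron called 0 introns (191 at an unadjusted p under 0.05). With each library's log odds centred on its median over all retained introns, which lay 0.19 lower on the log2 scale with CHERP siRNA than with EGFP siRNA, 46 introns rose and 30 fell, and 57 of the 69 were shared.

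The introns that rose most came from genes of unrelated kinds. TPTEP1, the name the deposited data give this event, is a transcribed, noncoding pseudogene of the phosphatase-like gene TPTE. In GENCODE 44 its 520 nt intron was placed as the last of a noncoding transcript listed under another gene identifier, which has no symbol. The intron was at 0.193 and 0.0733 in the EGFP libraries and at 0.687 and 0.575 in the CHERP libraries. The groups were far apart, the log2 odds rising by 3.63 (SE 0.49, adjusted p = 5.73e-13). NCKAP5L, which codes for a centrosomal protein, kept its last intron (394 nt) at 0.472 and 0.190 with EGFP siRNA and at 1 in both CHERP libraries (log2 odds 6.29, SE 3.41, adjusted p = 0.0330). No spliced read was left in the CHERP libraries, against 3 and 8 in the EGFP libraries, so the fitted size is poorly known. In RPL3, a protein of the large ribosomal subunit, a stretch of 796 nt was at 0.509 and 0.364 and then at 0.965 and 0.856 (log2 odds 3.64, SE 1.05, adjusted p = 0.000502). That stretch matches no annotated intron, holds an annotated exon and the gene of the small nucleolar RNA SNORD83B, and its level follows the 18 and 27 spliced reads that became 1 and 4.

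CANT1, a calcium-activated nucleotidase, had an intron of 195 nt in its 5′ UTR at 0.375 and 0.484 with EGFP siRNA and at 0.753 and 0.646 with CHERP siRNA (log2 odds 1.63, SE 0.50, adjusted p = 0.0317). RPGR, a protein of the ciliary base, had its last intron (615 nt) at 0.0344 and 0.0453 and then at 0.197 and 0.394 (log2 odds 3.15, SE 0.65, adjusted p = 2.3e-05). In both genes the 2 groups lay clear of each other. The last intron of ITSN2 (461 nt), an endocytic scaffold, was at 0.0735 and 0.0195 and then at 0.417 and 0.179. An intron of ALS2CL (299 nt) was at 0.202 and 0.0212 and then at 0.619 and 0.444. The groups did not overlap in either gene, but the libraries of a group lay far apart. RPS6KC1, a kinase-like protein, had an intron of 271 nt at 0.0635 and 0.0981 and then at 0.145 and 0.299. ST3GAL1, a sialyltransferase, had 1 of 203 nt at 0.0987 and 0.0819 and then at 0.202 and 0.252. CCDC14, a coiled-coil protein, had 1 of 312 nt at 0.192 and 0.143 and then at 0.268 and 0.340. No library of either group crossed into the other in these 3 genes, with adjusted p between 0.0153 for RPS6KC1 and 0.0414 for ST3GAL1.

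Each fit with 1 library left out has a lone library in 1 group, which is assumed to vary like the other groups. In all 4 such fits TPTEP1 kept its call, its rise in level lying between 0.438 and 0.558. The other 9 lost theirs without at least 1 library, and none changed direction. RPL3 lost it without CHERP library 1 (0.401 to 0.546 over the 4 fits) and RPGR without CHERP library 2 (0.158 to 0.354). ITSN2 lost it without EGFP library 2 or CHERP library 1 (0.132 to 0.370) and RPS6KC1 without EGFP library 1 or CHERP library 2 (0.0640 to 0.218). NCKAP5L (0.529 to 0.810), ALS2CL (0.330 to 0.510) and CCDC14 (0.101 to 0.173) kept it only without EGFP library 1, CANT1 (0.216 to 0.324) only without EGFP library 2, and ST3GAL1 (0.112 to 0.162) in none.

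Among the falls were several introns that control cells kept in most transcripts. SUPT7L codes for a subunit of the STAGA histone acetyltransferase complex, and its 5′ UTR intron of 577 nt was at 0.867 and 0.928 with EGFP siRNA and at 0.616 and 0.646 with CHERP siRNA (log2 odds -2.39, SE 0.56, adjusted p = 8.2e-05). Its spliced reads went from 13 and 9 to 60 and 62 while its intron reads stayed between 425 and 583. CREBZF, a leucine-zipper transcription factor, had an intron of 213 nt at 0.794 and 0.924 and then at 0.631 and 0.550 (log2 odds -2.12, SE 0.55, adjusted p = 0.0038). HMGN2, a nucleosome-binding protein, had an intron of 267 nt, annotated in a noncoding transcript, at 0.920 and 0.988 and then at 0.698 and 0.750. In these 3 genes the intron was still in the majority of transcripts after CHERP siRNA.

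Other falls began from lower levels. MBTD1, a chromatin reader, had its intron of 501 nt at 0.161 and 0.191 with EGFP siRNA and at 0.00791 and 0.0238 with CHERP siRNA (log2 odds -3.79, SE 0.80, adjusted p = 1.07e-06). PHF6, a PHD-finger protein, had a 3′ UTR intron of 330 nt at 0.216 and 0.237 and then at 0.0636 and 0.0488 (log2 odds -2.29, SE 0.58, adjusted p = 0.0023). PODXL, the sialomucin podocalyxin, had an intron of 336 nt at 0.201 and 0.433 and then at 0.0790 and 0.0761 (log2 odds -2.44, SE 0.61, adjusted p = 0.00164). The CHERP libraries of these genes lay close together and below both EGFP libraries, which in PODXL were far apart. PFKM, the muscle type of phosphofructokinase, had an intron of 252 nt at 0.182 and 0.551 and then at 0.103 and 0.0916. ARL6IP4, an SR-like nuclear protein, had 1 of 295 nt at 0.438 and 0.461 and then at 0.203 and 0.193. RFNG, a glycosyltransferase that modifies Notch, had 1 of 395 nt at 0.253 and 0.361 and then at 0.0892 and 0.0662. ATG16L1, which acts in autophagosome formation, had 1 of 668 nt at 0.0984 and 0.336 and then at 0.0213 and 0.0174. The EGFP libraries differed most in PFKM and ATG16L1, where the lower of them lay not far above the CHERP libraries. DVL3, a Wnt signalling protein of the study's RT-PCR panel, had an intron of 181 nt at 0.253 and 0.399 and then at 0.0954 and 0.126. It did not pass in the main test (log2 odds -1.87, SE 0.62, adjusted p = 0.054). It passed when only introns with a mean of at least 10 reads, or of at least 50, were tested. CANT1, SUPT7L and PODXL, called above, are also in that panel, where the paper reports a rise for CANT1 and falls for SUPT7L, PODXL and DVL3.

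SUPT7L (-0.298 to -0.237) and MBTD1 (-0.176 to -0.145) kept their calls with any 1 library left out. PFKM lost its call without EGFP library 2 (-0.454 to -0.0845 over the 4 fits) and ARL6IP4 without CHERP library 2 (-0.263 to -0.240). CREBZF (-0.333 to -0.203), PODXL (-0.356 to -0.124), HMGN2 (-0.265 to -0.196), ATG16L1 (-0.317 to -0.0790) and PHF6 (-0.181 to -0.160) kept it only without EGFP library 1, RFNG (-0.283 to -0.175) in none, and DVL3 passed in 1 of the 4 fits. HMGN2 did not pass with the log odds centred, and like HMGA1 and PABPC1 below it has processed pseudogene copies, so its reads are uncertain.

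**Figure D2:**
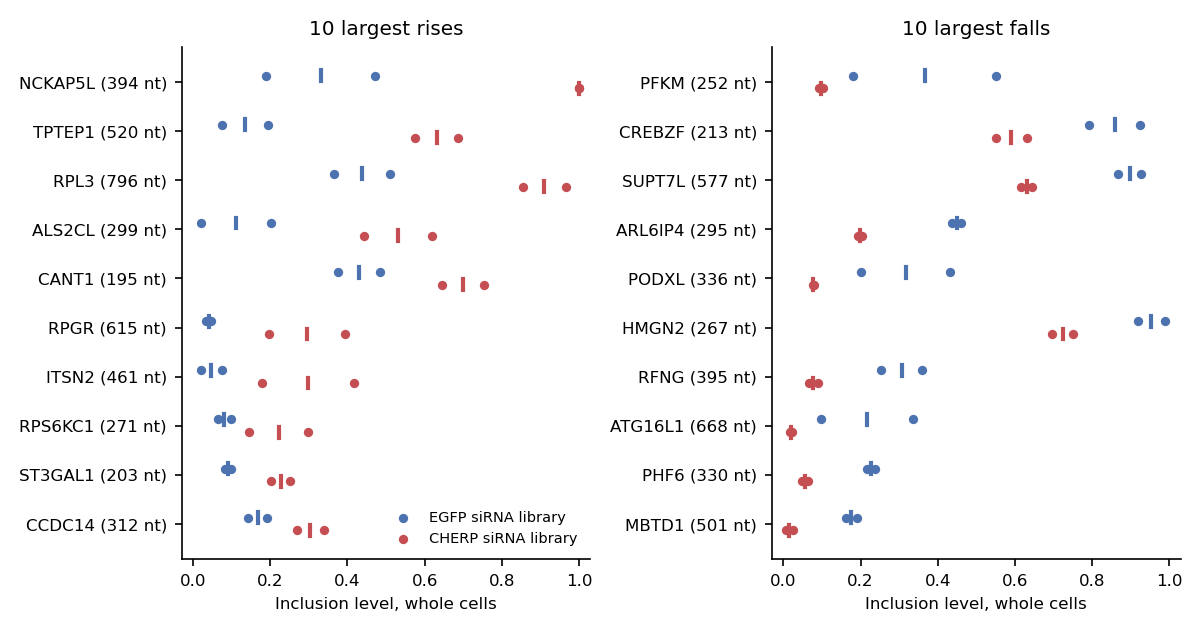
Inclusion level in each whole-cell library (points; blue EGFP siRNA, red CHERP siRNA) and the mean of 2 libraries (bars) for the 10 introns that rose most and the 10 that fell most among changed introns with at least 20 reads and no overlap between groups. The RPL3 intron stood at 0.364 to 0.509 in blue and 0.856 to 0.965 in red, and SUPT7L at 0.867 to 0.928 and 0.616 to 0.646.

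Of the 69 calls in whole cells, 10 held with any 1 library left out, 1 rise and 9 falls. Beside TPTEP1, SUPT7L and MBTD1 these were introns of DDX47, XPOT, DPM2, RPL4, PABPC1 and 2 of GAS5, and these genes, like others below that are not among the largest changes, were chosen after their values were seen. XPOT is the nuclear export receptor of tRNA, and its intron of 155 nt was at 0.137 and 0.152 with EGFP siRNA and at 0.0563 and 0.0496 with CHERP siRNA (log2 odds -1.59, SE 0.28, adjusted p = 1.09e-06). DPM2, a regulatory subunit of dolichol-phosphate mannose synthase, had an intron of 778 nt at 0.244 and 0.248 and then at 0.112 and 0.136 (log2 odds -1.21, SE 0.20, adjusted p = 1.58e-07). DDX47, a DEAD-box helicase, had 1 of 550 nt at 0.0766 and 0.103 and then at 0.0455 and 0.0413 (log2 odds -1.15, SE 0.22, adjusted p = 9.97e-06). Each of these falls was larger than the gap between libraries, with no overlap. The 307 nt intron of RPL4, a large-subunit protein, holds SNORD16 and was at 0.0267 and 0.0343 and then at 0.0199 and 0.0204 (log2 odds -0.62, SE 0.09, adjusted p = 8.16e-09), a small change that 13546 to 14563 spliced reads per library resolve. Ribosomal protein genes have processed pseudogenes, and how shared reads were counted was not given in the sources used here.

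In 3 called introns the groups overlapped, as the test uses the dispersion of events of like depth and gives an intron's own spread no weight. In the 5′ UTR intron of SLC25A3 (234 nt), the mitochondrial phosphate carrier, the EGFP libraries were at 0.0245 and 0.157 and the CHERP libraries at 0.168 and 0.150. In the 5′ UTR intron of HMGA1 (240 nt), a chromatin protein, they were at 0.0547 and 0.809 against 0.435 and 0.596. In RPP21 (858 nt), a subunit of RNase P, they were at 0.0601 and 0.160 against 0.0642 and 0.0326. In the former 2 the first EGFP library was low, and in the last the second EGFP library was high. Without EGFP library 1 the difference was 0.00206 in SLC25A3 and -0.294 in HMGA1, neither past the threshold, and RPP21 lost its call without EGFP library 2 or CHERP library 2 (-0.112 to -0.0117 over the 4 fits). The widest fall of all, in an intron of ABCC10 (610 nt), went from 0.512 and 0.632 to 0 and 0 but rested on 20 intron reads in the EGFP libraries together and 17 spliced reads in the CHERP libraries, and was lost without any 1 library.

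Further introns called in whole cells lay in genes of varied function. OXA1L, which inserts proteins into the inner mitochondrial membrane, had an intron of 182 nt at 0.141 and 0.175 with EGFP siRNA and at 0.0545 and 0.0791 with CHERP siRNA (adjusted p = 0.000304). OS9, a lectin of protein quality control in the endoplasmic reticulum, had 1 of 916 nt at 0.109 and 0.212 and then at 0.0482 and 0.0636 (adjusted p = 0.000364). CPSF7, a subunit of a cleavage factor of 3′ end formation, had 1 of 320 nt at 0.223 and 0.168 and then at 0.0711 and 0.0570 (adjusted p = 0.0112). These 3 fell with no overlap between groups. BMI1, a Polycomb protein, had 1 of 328 nt at 0.0229 and 0.0213 and then at 0.0622 and 0.0608 (adjusted p = 0.0331), its spliced reads going from 352 and 463 to 138 and 132 while its intron reads lay between 27 and 33. MAGED2, a MAGE family protein, had a last intron of 190 nt in its 3′ UTR at 0.0555 and 0.0713 and then at 0.169 and 0.123 (adjusted p = 0.0298). NCL, the nucleolar protein nucleolin, had 1 of 611 nt at 0.00820 and 0.00855 and then at 0.0139 and 0.0135 (adjusted p = 0.0129). These 3 rose, also with no overlap, and RNA of all 3 host genes fell, by 1.73 on the log2 scale for BMI1, 0.53 for MAGED2 and 0.90 for NCL. Of the 6 calls, OXA1L was lost without CHERP library 1, OS9 without EGFP library 2 or CHERP library 1 and NCL without CHERP library 1 or 2, and CPSF7, BMI1 and MAGED2 each passed in 1 of the 4 fits only.

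Lists of genes by family or function were small, and their counts stand against 3.26% called among all retained introns. Of 14 introns in SR and SR-like genes 1 fell (SRSF5), of 12 in RBM genes 1 rose (RBM3), of 23 in DDX and DHX helicase genes 2 fell (DDX46 and DDX47), and of 26 in proteasome genes 2 rose (PSMA1 and PSMC1). The median difference in level was 0.00585, 0.0109, -0.00495 and 0.000997 in these lists, against -0.000894 over all retained introns. The list of cytosolic ribosomal proteins had 42 introns, of which 2 in RPL4 fell while those in RPL3 and RPL37A rose, and the symbol rule also took in the riser RPS6KC1, a kinase. Among 31 introns of solute carriers only that of SLC25A3 passed, among 14 of POLR, MED and TAF genes only that of TAF1D (a rise, with SNORA32 inside), and among 12 of mitosis and cell-cycle genes only that of CDC42SE1, which matched by symbol alone. No intron passed among 9 of SR protein kinases, 7 of hnRNP genes, 14 of snRNP, SF3, PRPF and U2AF genes, 8 of mitochondrial ribosomal proteins, 20 of translation factors, 13 of the respiratory chain, 33 of ZNF genes or 27 of TMEM genes. The 10 introns of aminoacyl-tRNA synthetases lay in 5 genes and all had higher levels with CHERP siRNA (median difference 0.0257), and none passed. Of all 2012 introns 997 were higher. In the cytoplasm 1 intron of this list was higher and 3 were lower (median difference -0.00253). The PRPF4B introns count in 2 of these lists.

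Rises in the proteasome genes and RBM3 were small in level. PSMA1 codes for a core subunit, and its intron of 515 nt was at 0.0379 and 0.0494 with EGFP siRNA and at 0.0613 and 0.0664 with CHERP siRNA (log2 odds 0.56, SE 0.14, adjusted p = 0.00323). PSMC1, an ATPase of the regulatory particle, had an intron of 649 nt at 0.0127 and 0.0113 and then at 0.0297 and 0.0342 (log2 odds 1.44, SE 0.38, adjusted p = 0.00407). RBM3, a cold-inducible RNA-binding protein, had 1 of 646 nt at 0.0342 and 0.0362 and then at 0.0725 and 0.0567 (log2 odds 0.92, SE 0.16, adjusted p = 1.99e-06). The libraries did not overlap in these 3 genes. PSMA1 (0.0145 to 0.0260) and PSMC1 (0.0177 to 0.0222) kept their calls without 1 EGFP library only, PSMA1 without EGFP library 2 and PSMC1 without EGFP library 1, and RBM3 lost it without CHERP library 1 (0.0215 to 0.0373). The RBM3 intron holds an annotated exon of 269 nt whose own inclusion rose from 0.0178 to 0.0372 (adjusted p = 0.00296 over all skipped exons), and reads of that exon add to the intron's level.

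In the list of SNHG genes and GAS5, 3 of 19 introns fell and 16 did not pass, with 1.91% falling among all retained introns. Of the 29 introns of whole cells with an annotated small RNA inside, 2 rose and 3 fell. Median reads per library were 3086 in these 29 and 1937 in the GAS5 introns, against 61.4 over the class. The part of read depth in these counts was not tested. GAS5, a noncoding host gene of small nucleolar RNAs, had 10 introns in the class, the most of any gene, and SNHG29, listed as C17orf76-AS1, had 6. In the annotation used, no small RNA gene lay inside the 370 nt stretch of GAS5. The 524 nt intron of GAS5 was at 0.211 and 0.265 with EGFP siRNA and at 0.134 and 0.144 with CHERP siRNA (log2 odds -0.99, SE 0.09, adjusted p = 1.51e-23). Its 168 nt intron was at 0.348 and 0.376 and then at 0.224 and 0.245 (log2 odds -0.91, SE 0.11, adjusted p = 5.85e-13). Both falls were larger than the gap between libraries, and their spliced reads rose from 1035 and 1356 to 2248 and 2224 and from 673 and 957 to 1577 and 1485. Of the other 8 GAS5 introns none passed, and 5 had lower and 3 higher levels. These introns are not independent, as several overlap and can share reads. The 370 nt stretch contains the 168 nt and 179 nt introns, and the 924 nt stretch contains the 524 nt intron. The 3 that were higher, of 181, 370 and 924 nt, include the 2 long ones with an exon inside. In SNHG1, also such a host, an intron of 184 nt was at 0.312 and 0.277 and then at 0.211 and 0.230 (adjusted p = 0.0414), and this call was kept only without EGFP library 2 (-0.0917 to -0.0571) and was lost with the log odds centred.

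In SNHG29 overlapping introns did not move alike. The 481 nt intron was at 0.170 and 0.216 with EGFP siRNA and at 0.120 and 0.117 with CHERP siRNA in whole cells (log2 odds -0.85, SE 0.15, adjusted p = 2.15e-06). In the cytoplasm it was at 0.0601 and 0.0566 and then at 0.0272 and 0.0323 (log2 odds -1.04, SE 0.24, adjusted p = 0.00295). It fell in both fractions with no overlap. The 770 nt intron ends at the same 3′ site but starts further upstream, and in whole cells it was at 0.0847 and 0.0887 and then at 0.0794 in both libraries, which did not pass. In the cytoplasm it was at 0.0683 and 0.0622 and then at 0.0786 and 0.0870 (log2 odds 0.36, SE 0.08, adjusted p = 0.000879). It holds an alternative exon of 176 nt, whose own inclusion went from 0.217 to 0.283 in whole cells (adjusted p = 5.58e-07) and from 0.186 to 0.232 in the cytoplasm (adjusted p = 0.000623). The RNA of the gene rose too, by 1.03 on the log2 scale in whole cells and by 1.06 in the cytoplasm. The 266 nt intron was at 0.118 and 0.0247 and then at 0.0119 and 0.0155 in whole cells (adjusted p = 0.000461). Without EGFP library 2 the 481 nt intron lost its call in whole cells (-0.0971 to -0.0511 over the 4 fits), the 266 nt intron without EGFP library 1 or CHERP library 1 (-0.104 to -0.0110), and in the cytoplasm the 481 nt intron lost it without EGFP library 1 or CHERP library 1 (-0.0311 to -0.0260) and the 770 nt intron without EGFP library 2 or CHERP library 2 (0.0133 to 0.0218).

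**Figure D3:**
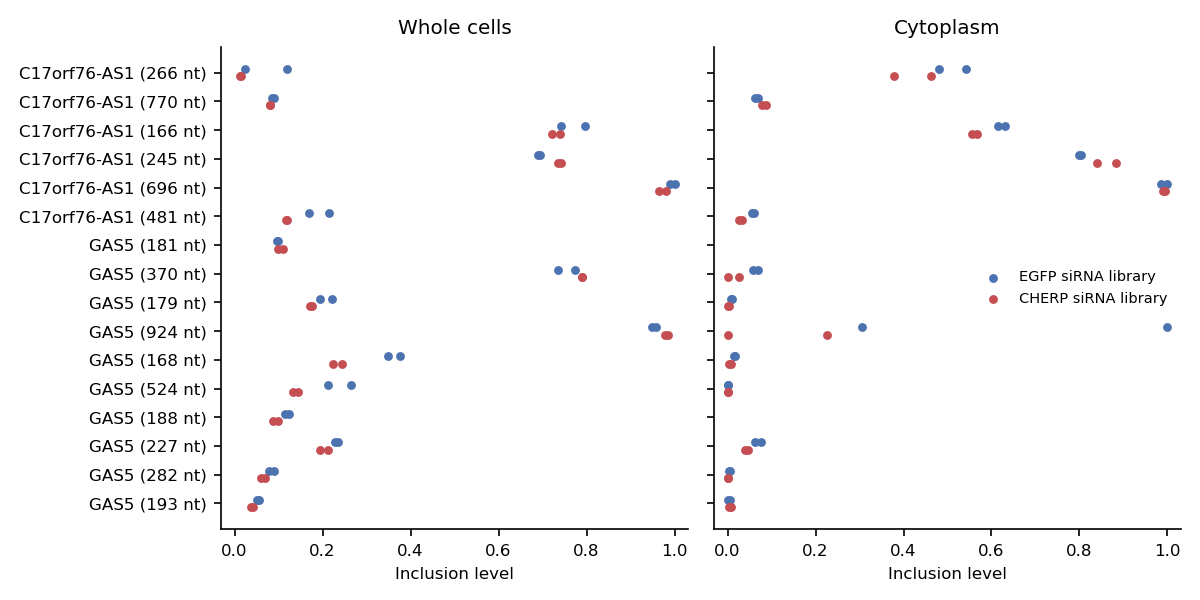
Inclusion level of the 6 introns of C17orf76-AS1 (SNHG29) and 10 introns of GAS5 in each library (blue EGFP siRNA, red CHERP siRNA), in whole cells (left) and the cytoplasm (right); introns of 181 and 188 nt had no cytoplasmic event. The 524 nt and 168 nt introns of GAS5 moved from 0.211 to 0.265 down to 0.134 to 0.144 and from 0.348 to 0.376 down to 0.224 to 0.245 in whole cells, while in the cytoplasm both were under 0.02 with either siRNA.

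In 2 genes introns moved in opposite directions. PABPC1, the cytoplasmic poly(A)-binding protein, had an intron of 198 nt at 0.0463 and 0.0476 with EGFP siRNA and at 0.0166 and 0.0162 with CHERP siRNA (log2 odds -1.57, SE 0.17, adjusted p = 8.9e-19). A longer event of 294 nt that shares its 3′ site was at 0.954 and 0.966 and then at 0.988 and 0.998 (log2 odds 2.45, SE 0.81, adjusted p = 0.0176). This was the only overlapping pair in which both introns were called, and the fitted rise rests on spliced reads that went from 30 and 32 to 10 and 2. Without CHERP library 1 or 2 the longer event was not called (0.0274 to 0.0387), and the shorter one was called in all 4 fits. In ZWINT, a kinetochore protein, the 151 nt intron was at 0.0968 and 0.0878 and then at 0.0387 and 0.0398 (adjusted p = 0.000855), and the 191 nt intron in the 3′ UTR was at 0.115 and 0.0962 and then at 0.173 and 0.167 (adjusted p = 0.0168). In either intron the groups did not overlap. Without CHERP library 1 or 2 the former was not called (-0.0575 to -0.0486), and the latter was called only without EGFP library 1 (0.0557 to 0.0741).

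In the cytoplasm the introns were at lower levels and fewer of them changed. Of 929 introns 4 rose and 14 fell, 1.94% against 1.95% of all 1696 retained introns tested, with 0.354% rising and 1.59% falling. Read against that, the share that changed was that of the background. It was 0.375% in introns under 150 nt and 5.58% in those of 1000 nt or more. Median reads per library were 28.75 under 150 nt, 29.75 in the class and 28.25 at 1000 nt or more. The median level was 0.0529 with EGFP siRNA and 0.0299 with CHERP siRNA, with 548 introns below and 377 above 0 in their difference (median -0.00222, against -0.00287 over all retained introns). The median log2 odds over all retained introns was 0.60 lower with CHERP siRNA in this fraction, and in both CHERP libraries it lay below both EGFP libraries. With the log odds centred on it, 17 introns rose and 0 fell, and of the 18 calls only the 4 rises were shared, so none of the falls below passes relative to that shift. Limma on the log2 odds called 0 introns (108 at an unadjusted p under 0.05, against 89 by the main test). Over all 1696 retained introns the main test had 142 at an unadjusted p under 0.05.

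TPTEP1 had the widest rise, its 520 nt intron being at 0.137 in both EGFP libraries and at 0.543 and 0.707 in the CHERP libraries (log2 odds 3.28, SE 0.55, adjusted p = 9.92e-07). It was the only intron called in the cytoplasm with any 1 library left out (0.406 to 0.570). INO80E, a subunit of the INO80 chromatin remodeller, had its first intron (155 nt) at 0.0602 and 0.0377 and then at 0.148 and 0.186 (log2 odds 1.92, SE 0.59, adjusted p = 0.0291). TUBB6, a beta-tubulin, had its first intron (337 nt, 79.8% GC) at 0.00583 and 0.0117 and then at 0.0281 and 0.0333 (log2 odds 1.78, SE 0.47, adjusted p = 0.00295). The fourth rise was the 770 nt intron of SNHG29. In all 4 both CHERP libraries were above both EGFP libraries. INO80E lost its call without any 1 library (0.0993 to 0.137) and TUBB6 without EGFP library 1 (0.0190 to 0.0248).

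The widest falls in the cytoplasm were in enzymes and regulators. COQ6, a monooxygenase of ubiquinone synthesis, had an intron of 693 nt at 0.276 and 0.145 with EGFP siRNA and at 0.0222 and 0.0335 with CHERP siRNA. PFKM had its 252 nt intron at 0.101 and 0.183 and then at 0.0158 and 0.0353. LZTR1, an adaptor of a ubiquitin ligase, had 1 of 583 nt at 0.155 and 0.0849 and then at 0.0168 and 0.0271. The EGFP libraries of each were above the CHERP libraries, on few reads, 12 and 16 intron reads for COQ6 and 7 and 10 for PFKM. CDK10, a cyclin-dependent kinase, had 1 of 705 nt at 0.0829 and 0.0642 and then at 0.0229 and 0.0108, and BRD2, a bromodomain protein, had 1 of 505 nt at 0.0971 and 0.0904 and then at 0.0376 and 0.0471. Their adjusted p lay between 0.0127 for BRD2 and 0.0267 for COQ6 and PFKM. COQ6 (-0.248 to -0.117) and LZTR1 (-0.133 to -0.0629) lost their calls without any 1 library, PFKM (-0.158 to -0.0754) and BRD2 (-0.0561 to -0.0466) kept theirs only without CHERP library 2, and CDK10 (-0.0660 to -0.0473) only without CHERP library 1.

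Further falls in the cytoplasm were small in level. CIAO1, which acts in the assembly of iron-sulfur proteins, had an intron of 609 nt at 0.0647 and 0.0802 with EGFP siRNA and at 0.0334 and 0.0418 with CHERP siRNA (adjusted p = 0.0130). ACADVL, an enzyme of fatty acid oxidation in mitochondria, had 1 of 267 nt at 0.0509 and 0.0306 and then at 0.0106 and 0.0109 (adjusted p = 0.0315). ATP6V0B, a subunit of the vacuolar proton pump, had its last intron (764 nt) at 0.0373 and 0.0360 and then at 0.0184 and 0.0171 (adjusted p = 0.0130), and RANBP1, a regulator of Ran, had its last intron (583 nt, with SNORA77 inside) at 0.0168 and 0.0110 and then at 0.00591 and 0.00454 (adjusted p = 0.0186). In these 4 genes the groups did not overlap in the cytoplasm, and none of their introns passed in whole cells. Without 1 library, CIAO1 kept its call in 2 of 4 fits, without EGFP library 1 or CHERP library 2, RANBP1 only without EGFP library 2, and ACADVL and ATP6V0B in none.

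Called in both fractions were 6 introns, those of TPTEP1 and INO80E rising and those of PFKM, SRSF5, SNHG29 (481 nt) and WBSCR22 falling. INO80E was at 0.0192 and 0 and then at 0.0776 and 0.0444 in whole cells (adjusted p = 0.0266). SRSF5, an SR protein, had an intron of 285 nt at 0.114 and 0.110 and then at 0.0738 and 0.0869 in whole cells (adjusted p = 0.0498), and at 0.0404 and 0.0969 and then at 0.0162 and 0.0203 in the cytoplasm (adjusted p = 0.0133). WBSCR22, an rRNA methyltransferase also named BUD23, had an intron of 682 nt at 0.0125 and 0.0274 and then at 0.00514 and 0.00889 in whole cells (adjusted p = 0.0203), and at 0.00659 and 0.00935 and then at 0.000676 and 0 in the cytoplasm (adjusted p = 0.0263). The libraries of SRSF5 and WBSCR22 did not overlap in either fraction, and both genes lost the whole-cell call with the log odds centred. Without 1 library, INO80E (0.0348 to 0.0680) and WBSCR22 (-0.0204 to -0.00552) kept the whole-cell call only without EGFP library 1, and SRSF5 (-0.0381 to -0.0250) in none. In the cytoplasm SRSF5 (-0.0787 to -0.0222) kept it only without EGFP library 1 and WBSCR22 (-0.00901 to -0.00625) in none.

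Directions were set side by side for the introns in both tables. Of the 27 risers of whole cells 11 had a cytoplasmic event, and 9 of these were also higher with CHERP siRNA there. Of the 42 fallers 22 had one, and all 22 were lower. Among all 878 introns in both tables the direction was the same in 529 (60.3%) and opposite in 345. Whether the effect of CHERP siRNA differed between fractions was tested as an interaction for 876 introns, and 1 passed, against 0.188% of 1599 retained introns. An unadjusted p under 0.05 was reached by 37 of the 876, against 67 of the 1599. On simulated data the interaction test recovered 3.5% of 200 introns changed by 1.5 in natural log odds. Every simulated intron had the highest fitted dispersion, 3.92, against 1.8 to 3.92 in the data. Recovery at the data's own dispersion was not simulated, so the share detectable there is not known. The intron that passed was that of SLC25A3, which went from 0.0907 to 0.159 in whole cells and from 0.254 to 0.301 in the cytoplasm (interaction -2.22 on the log2 odds, cytoplasm minus whole, adjusted p = 0.0201). It rests on the EGFP library of whole cells at 0.0245, without which the interaction was 0.31 (adjusted p = 0.933), and it was not called with the log odds centred (adjusted p = 0.350). It was also lost without the first whole-cell CHERP library or any 1 cytoplasmic library. The 770 nt intron of SNHG29 came next (interaction 0.51, adjusted p = 0.0729), and with the log odds centred it was the 1 intron that passed (0.96, adjusted p = 7.05e-09).

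The next 3 by adjusted p did not pass and rest on uneven libraries or few reads. The HMGA1 intron was at 0.0659 and 0.103 and then at 0.130 and 0.169 in the cytoplasm, against the EGFP libraries far apart in whole cells (interaction adjusted p = 0.143). RPL13, a large-subunit protein, has an intron of 209 nt with SNORD68 inside, which was at 0.0472 and 0.0710 and then at 0.0201 and 0.0415 in the cytoplasm, while in whole cells it was at 0.0394 and 0.0632 and then at 0.0498 and 0.0516 (interaction adjusted p = 0.354). The RPL13 intron fell in the cytoplasm by its own test (adjusted p = 0.00945) and lost that call without EGFP library 2 or CHERP library 1 (-0.0402 to -0.0164). In PSMD11, a proteasome subunit, an event of 769 nt that matches no annotated intron had at most 7 intron reads per library in the cytoplasm (interaction adjusted p = 0.354).

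Most of these introns had lower levels in the cytoplasm than in whole cells. With EGFP siRNA 271 of 876 introns were lower in the cytoplasm and 30 higher, against 27.5% lower and 3.0% higher among all 1599 retained introns. The median level was 0.140 in whole cells and 0.0440 in the cytoplasm, and 670 of the 876 were below. The median log2 odds difference was -1.71, against -1.51 over all retained introns. With each library centred on its own median, which removes the common shift, 69 were higher and 77 lower. The count of 301 fell to 170 and 171 without the first and second cytoplasmic EGFP library.

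Among introns with at least 20 reads and no overlap, GAS5 gave the widest fall between fractions, its 370 nt intron, which holds an exon, being at 0.735 and 0.774 in whole cells and at 0.0697 and 0.0582 in the cytoplasm (adjusted p = 2.33e-11). An intron of NDUFAF7 (843 nt), a mitochondrial methyltransferase needed for respiratory complex assembly, was at 0.682 and 0.608 and in the cytoplasm at 0.0738 and 0.117 (adjusted p = 1.49e-06). PML, the scaffold of nuclear bodies, had its last intron (641 nt) at 1 and 0.746 and in the cytoplasm at 0.243 and 0.323 (adjusted p = 0.0096). In all 3 the fractions did not overlap. TROAP, a spindle-associated protein, had an intron of 270 nt at 0.653 and 0.615 and in the cytoplasm at 0.109 and 0.156. CTDNEP1, a phosphatase of the nuclear envelope, had a 3′ UTR intron of 237 nt at 0.826 and 0.685 and in the cytoplasm at 0.320 and 0.231. Neither gene had a library of 1 fraction within the range of the other.

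The introns that were higher in the cytoplasm included stretches with an exon inside. In MYL6, a myosin light chain, a stretch of 352 nt was at 0.148 and 0.124 in whole cells and at 0.942 and 0.944 in the cytoplasm (adjusted p = 6.25e-89), and an annotated exon lies in it. In TMEM147 a stretch of 310 nt, also with an exon inside and matching no annotated intron, was at 0.447 and 0.483 and in the cytoplasm at 0.863 and 0.772 (adjusted p = 0.0127). The 266 nt intron of SNHG29 was at 0.118 and 0.0247 and in the cytoplasm at 0.480 and 0.542. None of these crossed between fractions. First introns of IMP4 (150 nt), which acts in rRNA processing, and METTL2B (206 nt), a tRNA methyltransferase, were at 0.0977 and 0 and at 0.0818 and 0.0361 in whole cells and at 0.711 and 0.613 and at 0.647 and 0.460 in the cytoplasm, on 2 to 6 spliced reads per cytoplasmic library.

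**Figure D4:**
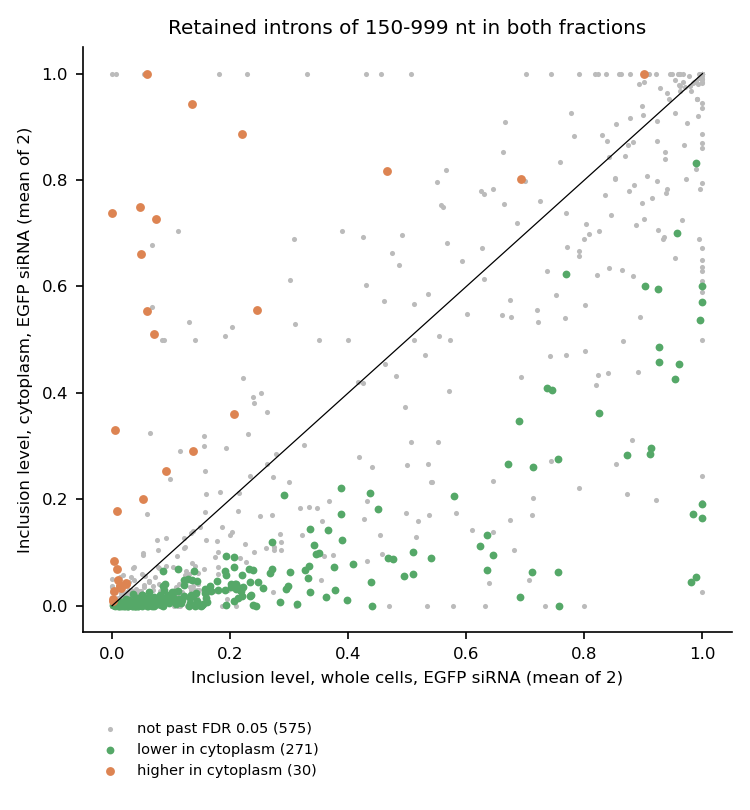
Mean inclusion level of each of 876 introns with EGFP siRNA in whole cells (x axis) and in the cytoplasm (y axis), 2 libraries each; the line marks equal levels. The 271 green points below the line were lower in the cytoplasm and the 30 orange points higher.

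Introns that changed had a lower median GC content than those that did not. The median GC content was 49.2% in the 27 that rose, 44.2% in the 42 that fell and 55.4% in the other 1943 of the whole-cell table. Of 293 introns under 40% GC, 11 rose and 14 fell, of 375 from 40% to 50%, 3 rose and 15 fell, of 692 from 50% to 60%, 8 rose and 6 fell, and of 652 with 60% or more, 5 rose and 7 fell. Read depth moved with GC content, the median reads per library in these 4 bins being 146, 132, 59.1 and 31.0, and its part in the counts was not tested. The medians of the 5′ site score were 6.70, 7.32 and 7.19 and of the 3′ site score 7.92, 7.63 and 6.93 for introns that rose, fell and did not pass. Last introns were 6 of the 27 risers, 1 of the 42 fallers and 225 of all 2012. An exon lay inside 5 risers, 0 fallers and 292 of all. These are descriptions without a test.

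The host genes of changed introns were measured on exon-skipping and alternative-site events of the same genes. Reads on an intron's spliced junction can count in those events too. An opposite movement of intron and host gene is thus not fully independent support. Of 25 host genes of risers 1 was higher and 11 lower with CHERP siRNA in whole cells (median log2 fold change -0.29), against 18.8% higher and 18.4% lower of all 9660 genes tested by limma. Of 37 host genes of fallers 17 were higher and 4 lower (median 0.30), and of 1158 hosts of the other introns 195 were higher and 196 lower (median 0.0050). PFKM RNA rose by 1.67 (adjusted p = 1.3e-05) and XPOT RNA by 0.69 (adjusted p = 0.00076) where their introns fell. RNA fell by 1.39 for ITSN2 (adjusted p = 0.000861), by 0.93 for RPGR (adjusted p = 0.000951) and by 0.99 for CCDC14 (adjusted p = 0.000236) where their introns rose. TPTEP1 went the other way, its RNA rising by 1.23 (adjusted p = 0.00807) with its intron, and HMGN2 RNA fell by 1.02 (adjusted p = 4.85e-05) with its own. In the cytoplasm 9 of 13 hosts of fallers were higher and 1 lower, against 24.6% higher and 23.6% lower of 7293 genes. Of the 3 hosts of cytoplasmic risers tested, 2 were higher and 1 lower (median 0.70), unlike the hosts of risers in whole cells. The part of gene abundance in the calls was not tested.

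**Figure D5:**
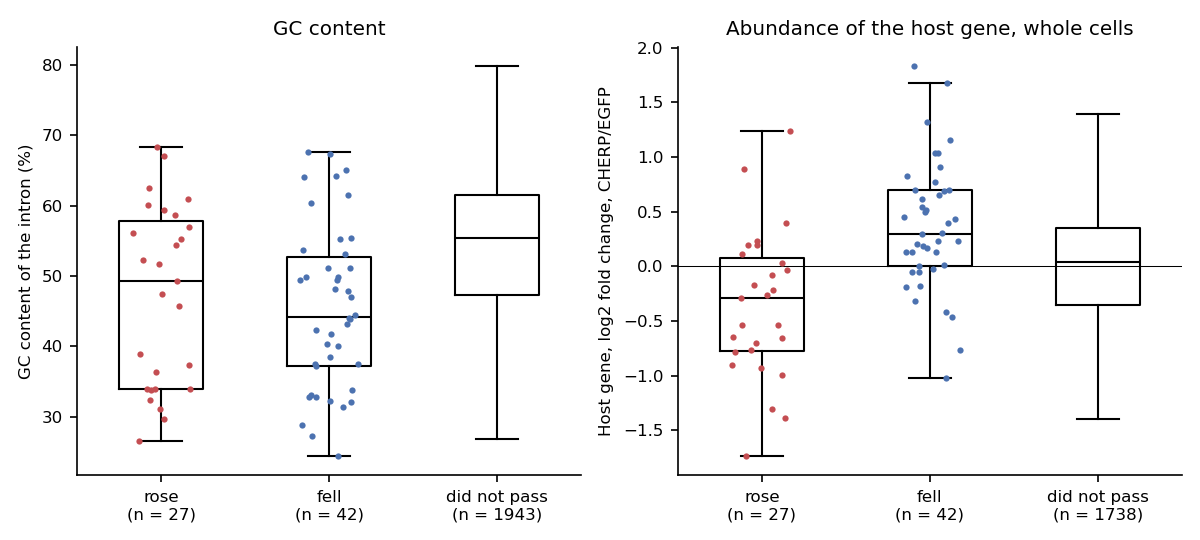
GC content of the intron (left, percent) and log2 fold change of its host gene's abundance, CHERP over EGFP siRNA (right), for introns of the whole-cell table that rose, fell or did not pass, with 1 point per changed intron. Boxes span the quartiles with the median, whiskers reach the farthest value within 1.5 box lengths, and median GC content was 49.2%, 44.2% and 55.4%.

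Skipped exons that lie in these introns and use their outer splice sites were measured as well. The skipping junction of such an exon is the spliced junction of the intron, and reads on the exon count for the intron too. Both measures thus share reads, and a like direction in them is not independent support. In whole cells 166 introns held 214 such exons, of which 6 were called, against 0.885% of all skipped exons. On simulated data whose dispersion varied between events, 45.5% of the 11 exons called by this test were false. Besides those of SNHG29 and RBM3, an exon of 23 nt in the 370 nt stretch of GAS5 went from 0.873 to 0.930 (adjusted p = 0.00468), 1 of 96 nt in RPL3 from 0.996 to 0.999 (adjusted p = 0.0227) and 1 of 66 nt in CPSF7, a cleavage factor subunit, from 0.10 to 0.0193 (adjusted p = 0.0349). Of the 5 stretches concerned, those of RPL3 and RBM3 rose as retained introns too, and those of SNHG29, GAS5 and CPSF7 did not pass in whole cells.

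The introns at either limit of the length rule are given without a test. Those just inside 150 nt, of 150 nt in ADM and DCAF11, went from 0.0591 to 0.0275 and from 0.699 to 0.805, and those just outside, of 149 nt in ABCC3 and IFT172, from 0.748 to 0.873 and from 0.156 to 0.533 on 5.25 and 5.5 reads per library. At the upper limit, introns of 996 nt in MIB2 and 997 nt in NDUFAF7 went from 0.137 to 0 and from 0.821 to 0.862, and those of 1000 nt in NAALAD2 and 1001 nt in UBE2D3 from 0.203 to 0.101 and from 0.00859 to 0.00854.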

How the data were processed

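RNA of U2OS cells was sequenced with a stranded mRNA kit, and the authors aligned reads with STAR 2.5.2b (RSEM 1.2.25 is also named in the submitters' processing notes) and counted splicing events with rMATS, whose version is not given in the sources used here, on hg19 and GENCODE 19. The deposited tables hold read counts of the intron-containing and the spliced form, with the 2 libraries of a group joined in a cell without a replicate number, and effective lengths of both forms. The authors' own p-values, FDR values, level differences, 20 columns of inclusion levels and table of fold changes were not used. One event per intron was kept, and each intron had 1 event per table. Reads were fitted per event with a quasi-binomial model. The Pearson dispersion (floor 1) was squeezed with limma 3.58.1 in R 4.3.3 towards a trend on read depth, at infinite prior degrees of freedom, so an event's own spread had no weight, and p-values were Benjamini-Hochberg adjusted over all 3717 or 1696 retained introns of a fraction. A joint fit of both fractions gave the interaction and the contrast of fractions. Levels divide reads by effective length, which is the intron plus 144 nt in whole cells or 73 nt in the cytoplasm for the intron-containing form. Host gene abundance was the sum of reads over effective length of exon-skipping and alternative-site events, scaled by median ratios and tested by limma on log2(value + 0.01) for genes with at least 20 reads. Annotation came from GENCODE 44 lifted to GRCh37. Site scores, counts and figures were made with numpy 2.4.6, pandas 2.3.3, pysam 0.24.0 and matplotlib 3.10.9 under Python 3.11.15.

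Introns were named if among the 10 with the widest rise or fall in whole cells, or 5 in the cytoplasm, of those past the threshold with a mean of 20 reads or more whose groups did not overlap, if called in both fractions, if among the top 5 of the interaction or of either direction of the fraction contrast, or in the study's RT-PCR panel. Members, gene lists and tests were chosen with earlier results of these data known. On simulated data with 200 introns changed by 1.5 in natural log odds, the test recovered 33.0% of them in whole cells (3717 introns) and 15.0% in the cytoplasm (1696 introns), with 1.49% and 6.25% of calls false where dispersion was shared. Where it varied between events, 17.6% of calls in whole cells were false, as were 45.5% of calls among 63977 skipped exons, of which 3.0% of changed ones were recovered. The interaction test recovered 3.5% (1599 introns), with every intron set to the highest fitted dispersion of 3.92. The result of 1 called intron is not reported here.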

Additional observations from a re-analysis of the deposited data

Results flagged for a closer look

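The 234 nt intron in the 5′ UTR of SLC25A3 was singled out because the effect of CHERP siRNA differed between fractions by a test of the difference itself (interaction -2.22 on the log2 odds, cytoplasm minus whole cells, adjusted p = 0.0201 by the quasi-binomial test). Its levels were 0.0245 and 0.157 in the EGFP libraries and 0.168 and 0.150 in the CHERP libraries of whole cells, and 0.25 and 0.258 and then 0.274 and 0.328 in the cytoplasm. The first whole-cell EGFP library had 911 spliced reads and the second 43, and without the first the interaction was 0.31 (adjusted p = 0.933). The cause of that library's value was not tested.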

How the results depend on the processing

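Counts depended on the dispersion, the centring and single libraries. Limma on the log2 odds called 0 introns in whole cells and 0 in the cytoplasm (191 and 108 at an unadjusted p under 0.05, against 251 and 89), and with own and trend dispersion at equal weight the counts were 0, 0 and 0 for whole cells, cytoplasm and interaction, and 179 for the contrast of fractions against 301. A trend taken from events whose rarer form had 10 reads or more gave 41 and 28 in place of 69 and 18. Centred log odds gave 146 in the contrast of fractions. Requiring also an unadjusted p under 0.05 by limma, an alternative chosen after seeing the data, gave 30 and 9, and requiring no overlap, also added, gave 66 and 18. Called or not, 736 of 2012 introns in whole cells and 314 of 929 in the cytoplasm had no overlap. Over all retained introns these were 1316 of 3717 and 541 of 1696. With 1 library left out the counts ran from 20 to 66 in whole cells, 4 to 8 in the cytoplasm, 0 to 3 for the interaction, 170 to 302 for the contrast of fractions, 239 to 630 for host genes in whole cells (425 in all) and 249 to 265 in the cytoplasm (291). The lowest whole-cell counts were without CHERP library 1 (20), CHERP library 2 (23) and EGFP library 2 (37). The median differences in level ran from -0.000244 to 0.00104 and from -0.00194 to -0.000311.

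The direction of 1 named intron reversed, HMGA1 in whole cells without EGFP library 1 (-0.294), its difference running from -0.294 to 0.461 with 1 library left out. For the named introns, 430 values with 1 library left out stayed on their side of the threshold, 166 no longer passed and 3 newly passed, and under the other alternatives 662, 188 and 20. The causes were not tested. No paired analysis was possible because the libraries within a cell carry no replicate number. As each intron had 1 event per table, choosing the event with the fewest reads was not run. At these depths 13.3% and 28.2% of the introns had under 10 reads, so small changes in them were not detectable.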
